A study of Mus musculus with 15 samples.

Results

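Lyz1, Lyz2, Mmp7, Ang4, Reg3a, Reg3b, Reg3g and Nod2 are the 8 genes described here, products of Paneth cells and other antimicrobial or microbe-sensing genes of the gut epithelium, out of 18820 genes measured. They were taken by name: a probe set counted when its annotation gave a single gene symbol equal to 1 of the 8. Each of them had 1 such probe set. Monolayers of duodenal organoid cells of C57BL/6J females, 9 weeks of age, were exposed for 6 h to casein (CAS), soybean meal (SBM), spray dried plasma protein (SDPP) or yellow meal worm (YMW), at 4% w/v as the labels give it, and medium control (MC) monolayers received DMEM alone. The methods of the study set this percentage beside a concentration in micrograms per mL that is far lower, so the dose is not settled. A sample is the pooled RNA of 3 wells on 1 array, labelled a biological replicate, and each of the 5 groups has 3 arrays. The study grew organoids from 3 mice, each cultured separately, but nothing in the labels ties a replicate number to a mouse. The p-values treat the arrays as independent. Whether they measure spread between mice or between cultures of the same mouse is not settled. All groups were grown in the same organoid medium, which holds WNT3A. Levels are log2 of the deposited array intensities, which the authors had normalised together, and differences are between group means on that scale.

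Paneth cells sit at the base of the small intestinal crypt, between the stem cells, and release granules rich in antimicrobial proteins into the crypt lumen. Lyz1 encodes their lysozyme, which cuts bacterial peptidoglycan, while Lyz2 encodes the closely related lysozyme of macrophages. Mmp7 encodes matrilysin, the metalloproteinase that cuts mouse pro-alpha-defensins into their active form, and Ang4 encodes an antimicrobial ribonuclease of the angiogenin family. Reg3a, Reg3b and Reg3g encode secreted C-type lectins, of which Reg3b and Reg3g are made by enterocytes as well as Paneth cells. Nod2 encodes a cytosolic receptor for muramyl dipeptide, a fragment of peptidoglycan.

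Promoter sequences are shown for the genes on which the results below turn, Nod2 and Mmp7, and for the related pairs Lyz1 with Lyz2 and Reg3b with Reg3g, whose copies lie close to each other. They come from RefSeq on GRCm38.p6 and run 5′ to 3′ along the gene, ending at the last base before the listed start or, for Nod2, before the start of the gene in the RefSeq gene table, which lies 32 bases further upstream. The 130 bases of Lyz1 (chr10:117292869-117292998, minus strand) and of Lyz2 (chr10:117282273-117282402, minus strand) have in capitals the 50 bases before the start that are the same in both.
Lyz1: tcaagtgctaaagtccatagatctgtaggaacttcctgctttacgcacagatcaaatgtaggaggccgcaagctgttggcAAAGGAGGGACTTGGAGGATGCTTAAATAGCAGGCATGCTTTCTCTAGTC
Lyz2: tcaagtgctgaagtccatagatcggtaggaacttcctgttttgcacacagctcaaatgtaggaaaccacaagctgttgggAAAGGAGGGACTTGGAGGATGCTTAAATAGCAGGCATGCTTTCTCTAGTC
In the other sequences capitals mark matches to 5 motifs searched on both strands over 250 bases: the TATA box TATAAA, the TCF motif CTTTGAT, the STAT motif TTCNNNGAA, the AP-1 motif TGANTCA and the NF-kB motif. Of 32851 mouse promoters, 12.4% held the TATA box, 3.21% the TCF motif, 7.02% the STAT motif, 6.75% the AP-1 motif and 7.25% the NF-kB motif. Shown are 130 bases of Mmp7 (chr9:7691960-7692089, plus strand, the more upstream of 2 listed starts) 250 bases each of Reg3b (chr6:78370635-78370884, plus strand) and Reg3g (chr6:78468875-78469124, minus strand), and 218 bases of Nod2 (chr8:88647097-88647314, plus strand).
Mmp7: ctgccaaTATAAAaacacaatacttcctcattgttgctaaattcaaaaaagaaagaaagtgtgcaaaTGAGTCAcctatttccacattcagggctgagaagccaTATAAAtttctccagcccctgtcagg
Reg3b: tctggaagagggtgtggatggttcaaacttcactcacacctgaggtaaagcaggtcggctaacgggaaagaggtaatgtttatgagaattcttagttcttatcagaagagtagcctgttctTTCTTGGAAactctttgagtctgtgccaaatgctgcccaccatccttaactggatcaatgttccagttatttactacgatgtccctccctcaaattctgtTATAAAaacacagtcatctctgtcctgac
Reg3g: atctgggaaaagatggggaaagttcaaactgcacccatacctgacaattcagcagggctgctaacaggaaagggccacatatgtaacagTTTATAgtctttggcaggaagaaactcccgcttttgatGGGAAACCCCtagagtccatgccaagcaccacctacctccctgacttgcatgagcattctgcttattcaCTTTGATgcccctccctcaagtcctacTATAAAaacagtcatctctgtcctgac
Nod2: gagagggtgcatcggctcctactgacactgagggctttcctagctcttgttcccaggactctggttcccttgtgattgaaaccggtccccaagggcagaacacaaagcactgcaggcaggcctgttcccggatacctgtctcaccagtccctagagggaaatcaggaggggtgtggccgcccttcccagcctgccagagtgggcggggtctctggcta
The Mmp7 sequence held the TATA box 26 and 123 bases before the start, and the AP-1 letters TGAGTCA between them. Reg3b and Reg3g had a TATA box 29 and 27 bases before their starts and shared their last 20 bases. Over 250 bases Reg3b and Reg3g were 68.9% identical and Lyz1 and Lyz2 78.8%, while the unrelated promoters of Mmp7 and Nod2 gave 44.3%. Reg3b held a STAT match (TTCTTGGAA), and Reg3g a TCF match, an NF-kB match (GGGAAACCCC) and a TATA box on the other strand. None of the 5 motifs was found in the 250 bases before the listed starts of Nod2, Lyz1 and Lyz2. A match is a run of letters and was not tested for binding.

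The labelled tissue was checked against marker genes. All 8 epithelial markers, among them Krt8 and Krt19, and all 3 genes of the proximal small intestine were above background, the log2 intensity of 3.91 that bounds 95% of 1155 olfactory and vomeronasal receptor genes. Of 12 myeloid markers 8 were above it, with mean log2 levels of up to 6.21 for Cd14 and 6.12 for Cd68, and Ptprc, Adgre1, Itgam and Cx3cr1 were below it. Of 8 stromal and endothelial markers 4 were above it, at up to 5.22 for Col1a1, and of 7 measured lymphoid markers 2 were. The study describes these monolayers as epithelial cells, and which cells gave the myeloid, stromal and lymphoid signals was not tested. The MC arrays were not alike: the mean log2 level of 13 enterocyte markers was 8.54 to 10.34 in the 12 treated arrays, against 8.81, 10.75 and 10.78 in MC replicates 1, 2 and 3, and that of 8 stem cell markers was 8.40 to 8.86 in the treated arrays, against 8.69, 7.88 and 7.32 in MC. MC replicate 1 thus lay within the treated range on both lists, and MC replicates 2 and 3 lay outside it. For the 7 of the 8 genes above background, differences are therefore also given against MC replicate 1 alone.

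Of the 8 genes, 7 had a mean intensity above background, and Reg3a was the exception. Nod2 and Mmp7 were higher with CAS and Nod2 with SDPP by the threshold of the study, which asks for a fold change of 1.5 or more together with p below 0.05 before adjustment. That is 2 of 8 with CAS, where 3.85% of all genes passed, and 1 of 8 with SDPP, where 1.63% passed. With SBM and YMW 0 of 8 passed, where 3.5% and 3.87% of all genes did. None of the 8 was lower by this threshold with any source. The mean of the 4 sources against MC gave 0 of 8, where 3.35% passed, and Nod2 alone had an adjusted p (limma, Benjamini-Hochberg over all genes) under 0.05, where 1.52% of genes did. The median log2 difference of the 8 genes lay between 0.27 with SBM and SDPP and 0.32 with CAS, while the median of all genes lay between −0.01 and 0.02. The 4 comparisons of a source with MC share the MC arrays and are not independent. The mean log2 level of the 8 genes was 6.80 to 6.95 on the treated arrays, against 6.90, 6.51 and 6.49 in MC replicates 1, 2 and 3. MC replicate 1 was thus within the treated range, and the positive medians rest on MC replicates 2 and 3.

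**Figure D1:**
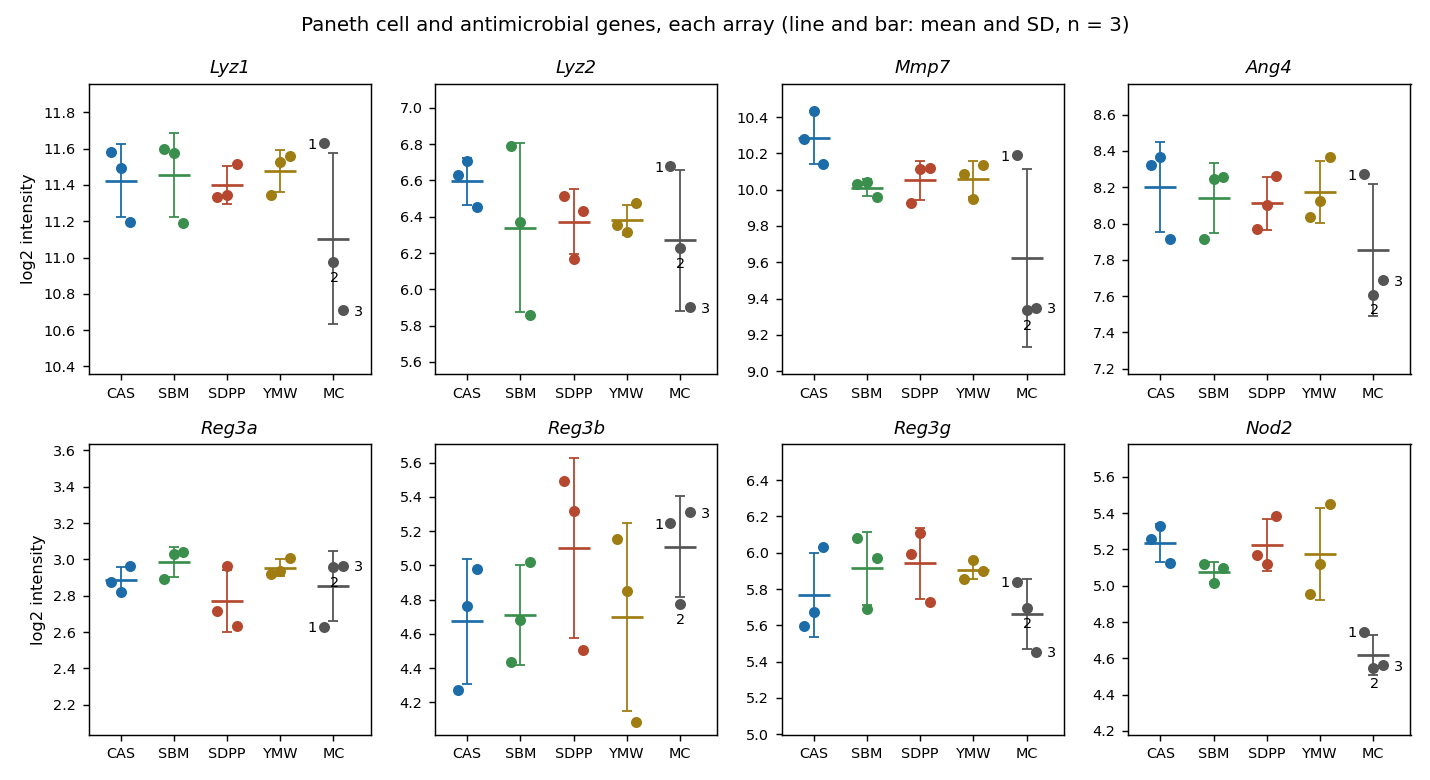
Log2 intensity of each of the 8 genes on each array, by group (x axis); horizontal lines are group means, bars are SD (n = 3 arrays) and numbers mark the MC replicates. Nod2 is higher on all 12 treated arrays than on the 3 MC arrays, and Lyz1, Mmp7 and Ang4 are low in MC replicates 2 and 3 but not in MC replicate 1.

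Nod2 was the gene whose groups did not overlap. Its log2 intensity was 5.26, 5.33 and 5.12 with CAS, 5.12, 5.01 and 5.10 with SBM, 5.17, 5.12 and 5.39 with SDPP, 4.95, 5.12 and 5.45 with YMW, against 4.75, 4.54 and 4.56 in MC. Every treated array was above every MC array, with a gap of 0.21 between the lowest treated array, YMW replicate 1, and the highest MC array, replicate 1. Of all genes 0.739% were higher on all 12 treated arrays in this way, and of the 8 genes Nod2 only. In intensity Nod2 averaged 37.8 ± 2.67 in CAS, 33.8 ± 1.29 in SBM, 37.5 ± 3.78 in SDPP, 36.5 ± 6.57 in YMW and 24.6 ± 1.94 in MC monolayers (SD, n = 3 each). Its mean log2 level was only 1.15 above background, which limits which changes can be seen. A lower level per cell and fewer cells that express a gene cannot be told apart in these bulk samples.

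The log2 difference of Nod2 from MC was 0.62 with CAS (SE 0.12, fold 1.54, adjusted p = 0.0435) and 0.61 with SDPP (fold 1.52, adjusted p = 0.314). It was 0.56 with YMW (adjusted p = 0.0853) and 0.46 with SBM (adjusted p = 0.161), where the fold changes of 1.47 and 1.37 missed the threshold. For the mean of the 4 sources the difference was 0.56 (SE 0.097, adjusted p = 0.0310), which was rank 26 by p among 18820 genes. Against MC replicate 1 alone Nod2 differed by 0.49 with CAS (adjusted p = 0.620) and 0.48 with SDPP (adjusted p = 0.834), and by 0.33 with SBM, 0.43 with YMW and 0.43 for the mean of the 4 sources (adjusted p = 0.829), all below the fold of 1.5. Nod2 fell short of the fold with CAS without MC replicate 2 (0.58) or CAS replicate 2 (0.57), and with SDPP without MC replicate 2 (0.57), MC replicate 3 (0.58) or SDPP replicate 3 (0.53). For the mean of the 4 sources its adjusted p was 0.00084 when MC replicate 1 was left out, and 0.228 or 0.242 when MC replicate 2 or 3 was.

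The measured genes of NOD2 signalling showed no common direction. Of 25 listed genes 22 were measured, and Ripk2, Chuk and Nfkb1 were not. Of the 22, 19 were above background, and 1 was higher and 1 lower past the threshold for the mean of the 4 sources. None of the 22 had an adjusted p under 0.05, and their median log2 difference was 0.01. Irgm1, an immunity-related GTPase, lay between 6.81 and 7.75 on the treated arrays, against 7.10, 6.20 and 5.82 in MC replicates 1, 2 and 3, a log2 difference of 0.87 (SE 0.22, adjusted p = 0.0559). Slc15a1, the brush border peptide transporter that also carries muramyl dipeptide, lay between 3.58 and 6.51 on the treated arrays, against 3.89, 7.30 and 7.66 in MC, a difference of −1.64 (SE 0.69, adjusted p = 0.172). For both genes MC replicate 1 was within the treated range, unlike for Nod2.

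Mmp7 passed the threshold with CAS. Its log2 intensity was 10.28, 10.43 and 10.14 with CAS, 10.03, 10.04 and 9.96 with SBM, 9.93, 10.11 and 10.12 with SDPP, 10.09, 9.95 and 10.14 with YMW, against 10.19, 9.33 and 9.35 in MC. MC replicate 1 was above 10 of the 12 treated arrays, and MC replicates 2 and 3 were below all 12. The SD was 0.49 over the MC arrays, against 0.14 over the treated arrays, so the SE, which rests on 1 variance for all groups, is too small for a comparison with MC. The difference from MC was 0.66 with CAS (SE 0.17, fold 1.58, adjusted p = 0.0930), and 0.39, 0.43 and 0.43 with SBM, SDPP and YMW (folds of 1.31, 1.35 and 1.35). For the mean of the 4 sources it was 0.48 (SE 0.13, adjusted p = 0.0683). Without MC replicate 1 that difference was 0.76 (adjusted p = 9.38e-06), and without MC replicate 2 or 3 the difference with CAS was 0.52 and missed the threshold. Against MC replicate 1 alone Mmp7 differed by 0.10 with CAS, and by −0.18 to −0.13 with the other sources.

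The alpha-defensins, the substrates of MMP7 in Paneth granules, are near-identical copies, and 15 of 18 probe sets with an alpha-defensin symbol carried several symbols and are not named. All 15 were above background, with mean intensities between 411 and 5521, and all 15 had a higher mean in treated arrays than in MC, by 0.08 to 0.44 (median 0.17). MC replicate 1 lay within the treated range in all 15, and MC replicates 2 and 3 were both below every treated array in 12. These probe sets share sequence and do not count as 15 separate measurements. Of the 3 with a single symbol, Defa39 lay between 7.73 and 8.36 on the treated arrays, against 7.87, 7.37 and 7.45 in MC, a difference of 0.46 (SE 0.12, adjusted p = 0.0642). Defa24 differed by 0.20 (SE 0.097, adjusted p = 0.226). Defa31, the last of the 3, differed by −0.005, with 6.07, 6.02 and 6.02 in MC, within the treated range of 5.80 to 6.49. With CAS Defa39 passed the threshold, at 8.29, 8.36 and 7.99 in CAS (difference 0.65, SE 0.16, adjusted p = 0.0846), and for the mean of the 4 sources none of the 3 did.

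Of 10 other metalloproteinases and inhibitors of metalloproteinases, 4 were above background and 2 were higher past the threshold, with a median difference of 0.02. Timp2, a tissue inhibitor of metalloproteinases, lay between 6.58 and 7.51 on the treated arrays, against 7.47, 5.72 and 5.52 in MC (difference 0.80, SE 0.28, adjusted p = 0.112). Mmp14, a membrane-bound metalloproteinase, lay between 7.23 and 7.99, against 7.65, 6.52 and 6.69 in MC (difference 0.64, SE 0.20, adjusted p = 0.0806). In both, as in Mmp7, MC replicate 1 was within the treated range and MC replicates 2 and 3 were below it.

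Lyz1 had a mean intensity of 2688 over the 15 arrays. Its log2 intensity was 11.58, 11.49 and 11.20 with CAS, 11.60, 11.57 and 11.19 with SBM, 11.34, 11.34 and 11.52 with SDPP, 11.35, 11.53 and 11.56 with YMW, against 11.63, 10.98 and 10.71 in MC. MC replicate 1 was above all 12 treated arrays, and MC replicates 2 and 3 were below all 12. The SD was 0.47 over the MC arrays, against 0.15 over the treated arrays. As for Mmp7, the SE is therefore too small for a comparison with MC. The difference from MC lay between 0.29 with SDPP and 0.37 with YMW (SE 0.18 each), and it was 0.33 for the mean of the sources (adjusted p = 0.183). Without MC replicate 1 the mean difference was 0.60 (adjusted p = 0.000973), and against MC replicate 1 alone it was −0.19. In all, MC replicates 2 and 3 were both below the 12 treated arrays for 4 of the 8 genes, Lyz1, Mmp7, Ang4 and Nod2, as for 13.4% of all genes.

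Lyz2 had a mean intensity of 85.3. Its log2 intensity was 6.63, 6.71 and 6.45 with CAS, 6.79, 6.37 and 5.86 with SBM, 6.51, 6.17 and 6.43 with SDPP, 6.36, 6.32 and 6.48 with YMW, against 6.68, 6.23 and 5.90 in MC. All groups overlapped MC. The difference from MC was 0.33 with CAS (SE 0.21, adjusted p = 0.476), and between 0.07 and 0.11 with the other sources. Against MC replicate 1 alone the difference was −0.25 for the mean of the sources. Lyz1 and Lyz2 are close copies, and whether the probes of each also bind RNA of the other was not tested. The 12 measured myeloid markers had a mean log2 level of 4.30 to 4.50 on the treated arrays, against 4.44 to 4.49 in MC. Of these markers 1 passed the threshold, the mannose receptor Mrc1, with a median of 5.26 and a maximum of 5.76 on the treated arrays, against 5.23, 6.14 and 6.37 in MC (difference −0.63, SE 0.19, adjusted p = 0.0807).

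Ang4 had a mean intensity of 277.0. Its log2 intensity was 8.32, 8.36 and 7.92 with CAS, 7.92, 8.25 and 8.26 with SBM, 7.97, 8.10 and 8.26 with SDPP, 8.03, 8.12 and 8.37 with YMW, against 8.27, 7.61 and 7.69 in MC. As for Mmp7, MC replicate 1 was within the treated range and MC replicates 2 and 3 were below it. The SD was 0.36 over the MC arrays, against 0.17 over the treated arrays, so here too the SE is too small. The difference from MC was between 0.25 and 0.34 (SE 0.17) with the 4 sources, and 0.30 (SE 0.14, adjusted p = 0.203) for their mean. Against MC replicate 1 alone that difference was −0.12. Of 3 other measured genes of the angiogenin group 0 passed the threshold. Rnh1, the ribonuclease inhibitor that binds angiogenins, lay between 8.83 and 9.34 on the treated arrays, against 9.02, 9.54 and 9.70 in MC (difference −0.29, SE 0.12, adjusted p = 0.151).

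The Reg3 genes did not pass the threshold with any source. Reg3b, at a mean intensity of 30.1, spread most: its log2 intensity was 4.27, 4.76 and 4.98 with CAS, 4.44, 4.68 and 5.02 with SBM, 5.49, 5.31 and 4.50 with SDPP, 5.15, 4.85 and 4.09 with YMW, against 5.25, 4.77 and 5.31 in MC. The highest and the lowest array were both treated, SDPP replicate 1 and YMW replicate 3. The difference from MC was −0.01 with SDPP, and −0.44, −0.40 and −0.41 with CAS, SBM and YMW (SE 0.29 each), and none had an unadjusted p under 0.05. The 95% interval of the difference with CAS ran from −1.07 to 0.19. Against MC replicate 1 alone the difference of Reg3b was −0.45 for the mean of the sources.

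Reg3g had log2 intensities of 5.60, 5.67 and 6.03 with CAS, 6.08, 5.69 and 5.97 with SBM, 5.99, 6.11 and 5.73 with SDPP, 5.86, 5.96 and 5.90 with YMW, against 5.84, 5.69 and 5.46 in MC. The 3 YMW arrays were above the 3 MC arrays, at 5.86 for the lowest YMW array against 5.84 for the highest MC array, and the other groups overlapped MC. Of all genes 7.42% were higher on the 3 YMW arrays than on the 3 MC arrays, and of the 8 genes Nod2 and Reg3g were. With CAS, SBM and SDPP only Nod2 of the 8 did not overlap MC, where 5.65%, 4.97% and 4.87% of all genes were higher without overlap. The difference of Reg3g from MC was 0.24 with YMW (SE 0.14, adjusted p = 0.378) and 0.22 for the mean of the 4 sources (SE 0.11, adjusted p = 0.274), and for the mean it was 0.043 against MC replicate 1 alone. Reg3a was below background on every array, at 2.63 to 3.04 on the treated arrays, against 2.63 to 2.97 in MC, and its differences carry no order.

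Of 18 listed genes linked to the induction of Reg3 genes 16 were measured, and Irak1 and Irak4 were not. The list also holds Socs3 and Fut2, so it is not one of inducers alone. Of the 16, 15 were above background, 0 were higher and 1 was lower past the threshold, with a median difference of −0.07. Il22ra1, the epithelial subunit of the receptor for interleukin-22, lay between 8.48 and 9.32 on the treated arrays, against 8.89, 9.72 and 9.89 in MC, a difference of −0.61 (SE 0.16, adjusted p = 0.0597). Its partner chain Il10rb, named after its values were seen, had an adjusted p of 0.0480 at a difference of −0.38, below the fold of 1.5, with MC replicate 1 at 9.25 within the treated range of 8.92 to 9.31. Of the 4 other measured Reg genes 0 passed the threshold. Reg4, a marker of secretory cells, lay between 10.77 and 11.24 on the treated arrays, against 11.15, 10.52 and 10.50 in MC (difference 0.30, SE 0.12, adjusted p = 0.145), and Reg1 differed by −0.11 (SE 0.28).

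**Figure D2:**
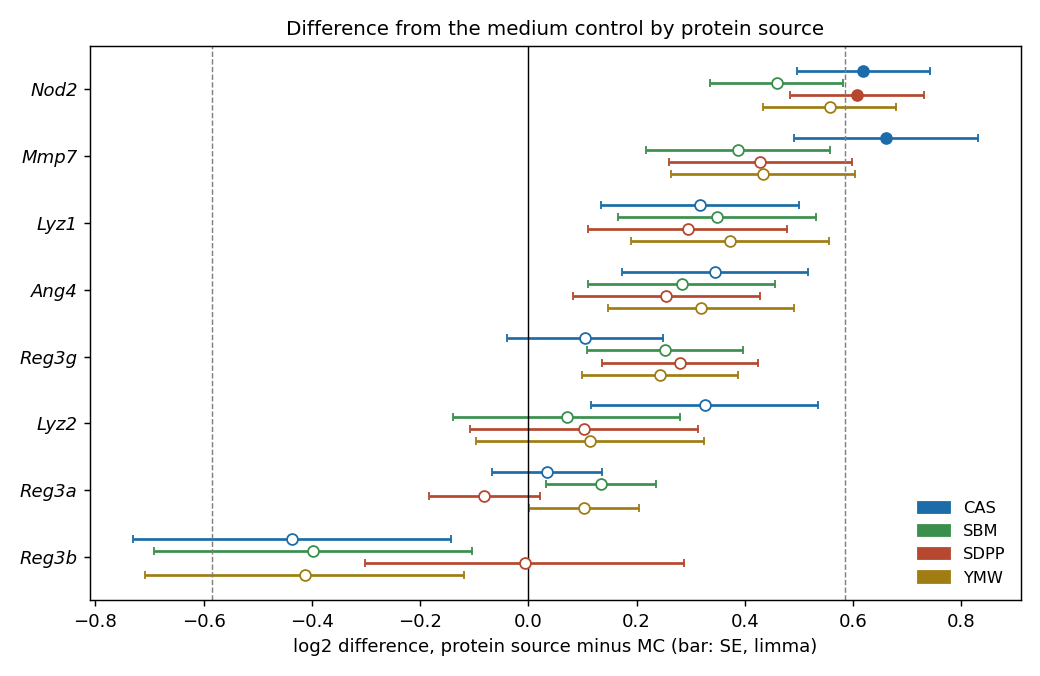
Log2 difference of each protein source from MC for the 8 genes (x axis), with SE from limma as bars; filled points passed the study's threshold and dashed lines mark a fold change of 1.5. Nod2 and Mmp7 with CAS and Nod2 with SDPP passed, and Reg3b is the gene whose points with CAS, SBM and YMW lie near −0.4.

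No difference between the protein sources passed the threshold in these genes. Against the mean of the other 3 sources 0 of 8 genes passed the threshold with CAS, SBM, SDPP or YMW, where 0.159%, 0.0266%, 0.0159% and 0.0691% of all genes passed, and 0 of these 32 comparisons had an unadjusted p under 0.05 by limma, where 5.36%, 4.83%, 2.42% and 5.5% of all genes did. The 6 pairs of sources gave 48 comparisons, of which 0 passed the threshold and the lowest unadjusted p by limma was 0.0519, for Reg3a below background. Of all genes 0.276% passed between CAS and SBM, 0.175% between CAS and SDPP, 0.244% between CAS and YMW, 0.0372% between SBM and SDPP, 0.138% between SBM and YMW and 0.0531% between SDPP and YMW. The 48 had differences between −0.43 and 0.41 and 95% intervals that reached −1.06 and 1.04. The Mmp7 level with CAS exceeded the mean of SBM, SDPP and YMW by 0.25 (95% interval −0.05 to 0.54, adjusted p = 0.986). The Reg3b level with SDPP exceeded the mean of CAS, SBM and YMW by 0.41 (95% interval −0.11 to 0.92, adjusted p = 0.9996). Without SDPP replicate 3 that difference was 0.71 (adjusted p = 0.995). The order of the 4 sources is thus not settled for any of the 8 genes.

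Among the 12 treated arrays the genes followed the enterocyte and stem cell markers to different degrees, as a description chosen after the values were seen. Reg3b was high where enterocyte markers were high (Pearson r = 0.91, Spearman rho = 0.91, n = 12 arrays), and r was 0.83 without SDPP replicates 1 and 2, the arrays farthest from the median of the marker level. MC replicate 1, with enterocyte markers at 8.81 and Reg3b at 5.25, lay apart from this, and over all 15 arrays r was 0.66 (rho = 0.75). Lyz1 ran the other way (r = −0.84, rho = −0.85, and −0.94 without those arrays), and over all 15 arrays r was −0.90. Against the stem cell markers r was 0.84 for Lyz1 and −0.82 for Reg3b, and 0.60 for Ang4, 0.56 for Nod2 and 0.41 for Mmp7. Over all 15 arrays these values were 0.94 for Lyz1, −0.45 for Reg3b, 0.80 for Ang4, 0.77 for Nod2 and 0.88 for Mmp7. Within the 12 treated arrays Lyz1 and Reg3b were opposed (r = −0.73), while Reg3b and Reg3g had r = 0.47. All these values come from the same arrays and the same normalization, and arrays of 1 group may share more than their treatment.

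Over all 15 arrays Mmp7 was closest to Ang4 (r = 0.83) and Lyz1 (r = 0.81) among the 8 genes. Within the 12 treated arrays these values were 0.50 and 0.25. Among all genes above background, those most like Lyz1 over 15 arrays were Apobec3, Rnase1 and Fabp5 (r = 0.97 each). Rad21, Ncmap and Habp2 were most like Mmp7 (r = 0.95 each). Most like Ang4 were Clps, the pancreatic-type colipase gene that Paneth cells express (r = 0.93), Actr8 (r = 0.92) and Nudc (r = 0.91). Pebp1, Rnaseh2c and Pdxp were most like Nod2 (r = 0.92, 0.91 and 0.91). The nearest genes of Lyz2 were Psmd14, Ola1 and Ccdc167, of Reg3b Wdr7, Shpk and Wnt4, and of Reg3g Fbxo48, Rragd and Eif4a3, with the lower r of 0.77 to 0.87 for the Reg3 genes.

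**Figure D3:**
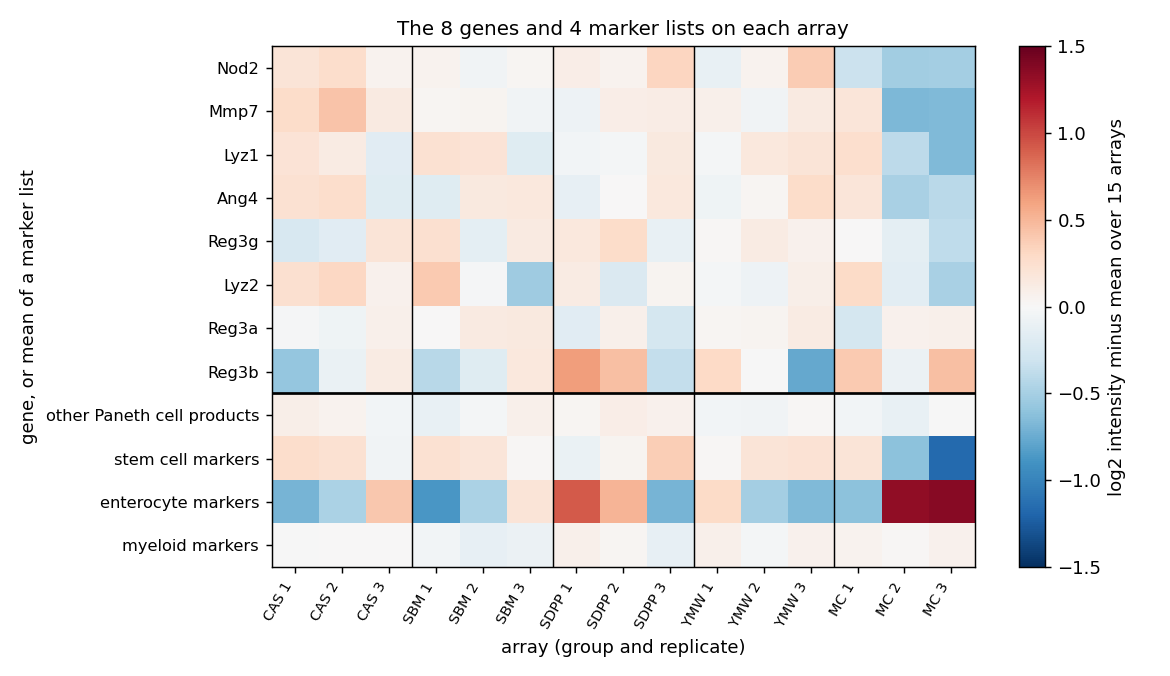
Log2 intensity of the 8 genes, and mean log2 level of 4 marker lists, on each array (x axis), as the difference from the mean over 15 arrays (colour). Lyz1, Mmp7 and Ang4 are low in MC replicates 2 and 3, where enterocyte markers are high and stem cell markers low, and Reg3b follows the enterocyte markers across the treated arrays.

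Other Paneth cell genes passed the threshold in few cases. Of 10 other secreted products measured, 9 were above background, 8 had a difference above 0, 1 was higher and 1 lower past the threshold for the mean of the 4 sources, with a median difference of 0.09. Habp2, a serine protease that binds hyaluronan, lay between 6.78 and 7.76 on the treated arrays, against 7.26, 6.23 and 6.17 in MC (difference 0.77, SE 0.19, adjusted p = 0.0533). Pnliprp2, a lipase, lay between 6.51 and 9.20, against 10.22 and 10.60 in MC replicates 2 and 3 (difference −1.43, SE 0.63, adjusted p = 0.193). Of 18 genes that specify or maintain Paneth cells, all above background, 6 had a difference above 0, 0 passed the threshold for the mean of the 4 sources and the median was −0.06. With CAS 2 of them were higher past the threshold, named after their values were seen. Sox9, a transcription factor needed for Paneth cells to form, had 9.73, 9.60 and 9.40 with CAS, against 9.33, 8.78 and 8.26 in MC (difference 0.79, SE 0.22, adjusted p = 0.113), and it also passed for CAS against the other 3 sources (0.68, SE 0.18, adjusted p = 0.326). Ephb3, a receptor that positions Paneth cells in the crypt, had 8.59, 8.41 and 8.06 with CAS, against 8.06, 7.54 and 7.21 in MC (difference 0.75, SE 0.22, adjusted p = 0.120). The lowest CAS array overlapped MC replicate 1 for Ephb3 and not for Sox9. Of the other regulators, beta-catenin (Ctnnb1) differed by −0.07 (SE 0.042) and Cd24a, a surface marker of Paneth cells, by 0.10 (SE 0.075).

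Of 25 other antimicrobial genes 14 were above background, 1 was higher and 1 lower past the threshold, with a median of −0.01. Lcn2, which encodes a protein that binds bacterial siderophores, lay between 4.63 and 5.60 on the treated arrays, against 4.92, 3.98 and 3.74 in MC (difference 0.86, SE 0.21, adjusted p = 0.0543). Zg16, a lectin of goblet cells that binds Gram-positive bacteria, lay between 8.97 and 9.98, against 9.07, 10.69 and 11.06 in MC (difference −0.95, SE 0.30, adjusted p = 0.0851). Goblet cell markers held 1 lower gene of 4, Clca1, at 10.61 to 11.03 on the treated arrays, against 10.85, 11.74 and 11.96 in MC (difference −0.71, SE 0.15, adjusted p = 0.0454). For Habp2, Pnliprp2, Lcn2, Zg16 and Clca1 alike MC replicate 1 was within the treated range. Past the threshold, 5 of 13 enterocyte markers were lower (median −0.99) and 3 of 8 stem cell markers higher (median 0.44), where 3.35% of all genes passed. None of either list had an adjusted p under 0.05. The mean level of both lists in MC replicate 1 was within the treated range as well. Whether the shares of these cell types took part in the differences of the 8 genes was not tested.

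**Figure D4:**
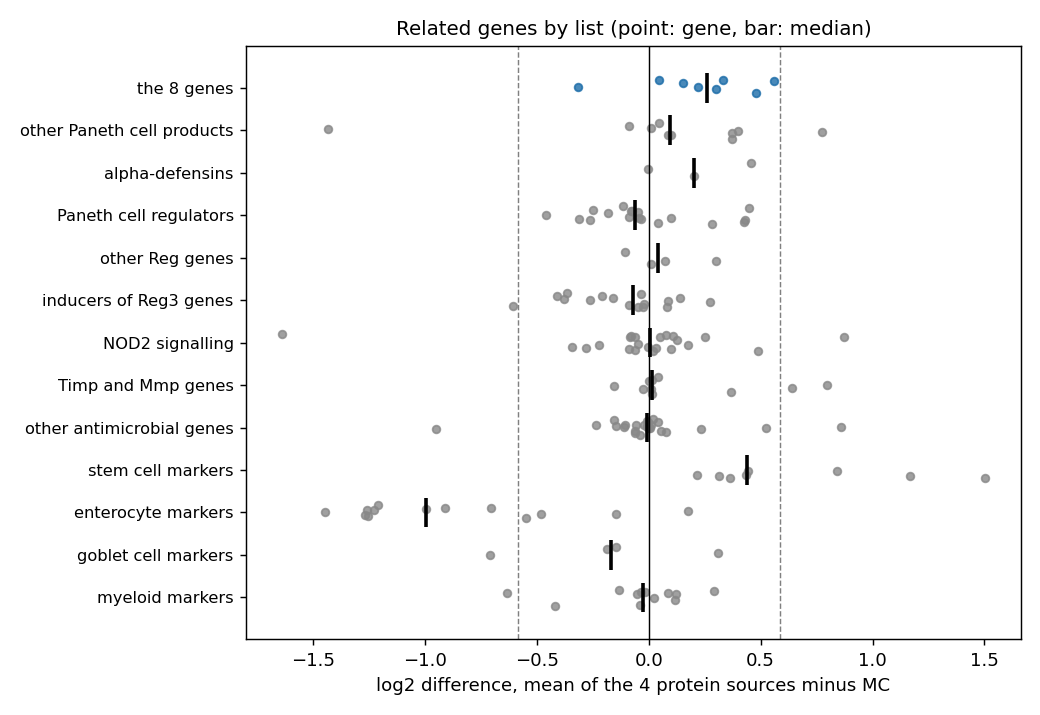
Log2 difference between the mean of the 4 protein sources and MC (x axis) for each gene of 13 lists; points are genes, black bars medians and dashed lines a fold change of 1.5. The 8 genes have a median of 0.26, between the stem cell markers at 0.44 and the other Paneth cell products at 0.09. The 3 alpha-defensins with a single symbol have a median of 0.20, and the enterocyte markers lie at a median of −0.99.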

How the data were processed

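RNA from 15 samples was measured on mouse gene 1.1 ST arrays (Affymetrix). The authors computed the deposited intensity values with RMA, a method that subtracts background, quantile normalizes the arrays and summarises each probe set from its probes. No version of RMA is given in the sources used here. Intensities ranged between 3.02 and 10739.1 on a linear scale, so log2 was taken first. Of 35556 probe sets, 21218 carried 1 gene symbol, 1881 several and 12457 no name. A gene with more than 1 probe set was represented by the brightest. Symbols came from the annotation of the platform and sequences from RefSeq.

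The 5 group means were fitted together with limma 3.58.1 (R 4.3.3) and an intensity trend in the moderation of variances, and p-values were adjusted by the Benjamini-Hochberg method over all 18820 genes. The 8 genes and the lists were chosen with earlier results of these data known. Named beside the 8 genes were up to 4 members of a list past the threshold for the mean of the 4 sources or, with none, up to 2 with the highest mean, and the 3 most similar genes. Alternatives were other normalizations, array weights, variance priors, filters, control arrays and thresholds, the replicate number as a block, and each array left out. The precision is limited by the number of arrays.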

Additional observations from a re-analysis of the deposited data

How the results depend on the processing

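Nod2 kept its direction in every comparison with MC under every alternative, with a log2 difference of 0.49 to 0.71 with CAS and 0.43 to 0.63 for the mean of the 4 sources when no array was left out. MC replicate 1 as the only control assumes that this array varies like the other groups. It reversed Lyz1 (CAS −0.21, SBM −0.18, SDPP −0.23, YMW −0.15, mean −0.19), Lyz2 (CAS −0.082, SBM −0.34, SDPP −0.30, YMW −0.29, mean −0.25), Mmp7 (SBM −0.18, SDPP −0.14, YMW −0.13, mean −0.087), Ang4 (CAS −0.071, SBM −0.13, SDPP −0.16, YMW −0.097, mean −0.12), Reg3a with SDPP (0.14) and Reg3g with CAS (−0.072). Array weights, whose estimate stopped before it converged, gave MC replicate 2 a weight of 21.1 and MC replicate 1 one of 0.193, so they set MC replicate 2 almost alone against the rest. They reversed Reg3a (CAS −0.087, mean −0.048) and Reg3b (SDPP 0.37, mean 0.019), and centring on the array median reversed Reg3a with CAS (−0.00307).

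The count of the 8 genes past the threshold was 2 with CAS, and became 1 with median-centred arrays, 0 with MC replicate 1 as the only control and 3 with array weights. With SDPP it was 1, and became 0 with a second quantile normalization, median-centred arrays or MC replicate 1 alone. Array weights gave 1 with SBM and 2 each with SDPP, YMW and the mean of the sources. A fold change of 1.2 gave 2 each with SBM, SDPP and YMW and 4 for the mean. No share of all genes is given for these settings. The counts thus do not show whether the 8 genes changed more than other genes did. The cause of these changes was not tested.

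With each array left out in turn, the count was 0 to 2 with CAS, SBM and SDPP, 0 to 3 with YMW and for the mean of the sources, 0 to 1 for SDPP against the other 3 sources and 0 to 3 over the pairs of sources. The log2 difference from MC then crossed 0 for Lyz2 with SBM (−0.15 to 0.31), SDPP (−0.081 to 0.31), YMW (−0.070 to 0.32) and the mean (−0.030 to 0.36), for Reg3a with CAS (−0.077 to 0.092), YMW (−0.0085 to 0.16) and the mean (−0.064 to 0.11), for Reg3b with SDPP (−0.20 to 0.29) and for Reg3g with CAS (−0.027 to 0.19). Counts above those with all arrays came without MC replicate 1 (SBM, SDPP, YMW and the mean), YMW replicate 1 (YMW and the mean) and SDPP replicate 3 (the comparisons among sources). Here too the counts have no share of all genes beside them.

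The correlation of 30 same-numbered pairs of arrays ran from −0.686 to 0.537, with a median of −0.161, and 9 were over 0.1. Correlations of both signs cannot decide whether a replicate number ties arrays to 1 mouse or culture. With the replicate block the counts stayed at 2, 0, 1 and 0 with CAS, SBM, SDPP and YMW, and the adjusted p of Nod2 was 0.0826 with CAS and 0.0578 for the mean of the sources. Values near background, such as those of Reg3a, Reg3b and Nod2, limit which changes can be seen.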
